A study of Homo sapiens with 6 samples.

Results

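The replication-dependent histone genes are described here in A549, a long-established line from a human lung adenocarcinoma, after knockdown of the long noncoding RNA SNHG17. They were taken by name as the messenger RNA rows whose gene name starts with HIST1H, HIST2H, HIST3H or HIST4H, which gave 70 genes among the 54261 rows of the deposited count table. They comprise 6 H1, 17 H2A, 18 H2B, 14 H3 and 15 H4 genes, and a further 20 rows with such names but other gene types were not counted as members. The name rule also takes in some germ-cell genes of the clusters, such as the testis linker histone gene HIST1H1T. Cells that received siRNA to SNHG17 (si-SNHG17, labelled SNHG17 knockdown, 3 libraries) were compared with cells that received control siRNA (si-NC, labelled Control, 3 libraries). All 6 libraries came from the same line, cultured in 1640 medium with 10% fetal bovine serum. The labels give neither the siRNA sequences nor the time after treatment, and they name no separate cultures within a group. The p-values therefore rest on the scatter among these 6 libraries, which could be technical only.

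The core histones H2A, H2B, H3 and H4 form the protein spool around which DNA is wound, and the linker histone H1 sits where DNA enters and leaves it. Most of this histone supply is made in S phase from clustered genes without introns, whose mRNAs end in a conserved 3' hairpin instead of a poly(A) tail. The hairpin is bound by the protein SLBP, and the mRNA is cut just after it by a complex guided by the U7 RNA and is degraded when DNA synthesis stops. Some of these genes are also known to make longer, polyadenylated transcripts that read past the hairpin, among others in cells that have left the cell cycle.

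The hairpin is shown first because it is the feature that sets this gene family apart. A search of GENCODE release 29 transcripts (GRCh38) for a 6-base stem that starts with GG, a 4-base loop that starts with TT and the reverse complement of the stem found it in protein-coding transcripts of 30 of the 70 genes. Among all 19669 protein-coding genes of that annotation 0.605% had it. Many annotated histone transcripts stop at the end of the coding sequence, so a gene without a match is one whose annotated transcript does not hold these letters. Of the 12 genes with enough counts to be tested below, 9 had it, and the copies HIST2H2AA3 and HIST2H2AA4 had the same 30 bases, so 1 of them is shown. The hairpin is in capitals, with its neighbouring bases in lower case.
HIST1H2AC: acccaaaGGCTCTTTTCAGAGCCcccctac
HIST2H2AA3: ctcaaaaGGCTCTTTTCAGAGCCacccacg
HIST3H2A: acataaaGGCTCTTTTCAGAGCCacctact
HIST2H2BE: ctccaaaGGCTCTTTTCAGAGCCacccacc
HIST1H3H: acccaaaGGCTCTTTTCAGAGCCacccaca
HIST1H2BC: ccccaaaGGCTCTTTTAAGAGCCacccaga
HIST1H2BD: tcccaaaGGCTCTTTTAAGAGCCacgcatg
HIST1H4H: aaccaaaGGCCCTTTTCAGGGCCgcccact
The first 5 hairpins printed have the same 16 bases, which 17 members shared in all. HIST1H2BC and HIST1H2BD differ from them in the loop and share their form with 3 other members, and HIST1H4H has a stem found in H4 genes only, with 5 members in that form. The annotated HIST2H2BE transcript ran 1729 bases past its hairpin, and that of HIST1H3H 769 and that of HIST3H2A 390. The HIST1H2AC transcript with the match ran 1114 bases past it, whereas that of HIST2H2AA3 ended 35 bases after it. In HIST1H2BD the match was in the shorter of 2 annotated transcripts, with 496 bases, which ended 39 bases after it. The longer HIST1H2BD transcript had 789 bases. The annotated transcripts of HIST1H1C, HIST1H2BJ and HIST1H2BK held no match.

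The promoters of 65 members were found in the RefSeq table of GRCh38.p14, as 300-base windows from 250 bases before to 50 bases after the annotated start. They were searched on both strands for CCAAT, for TATAAA, for the octamer ATTTGCAT, which H2B promoters are known to use, and for the sequence AAACACA, known as the H1 box. The first of these stood in 55 of the 65 histone windows, against 35.4% of all 27305 promoter windows, and the TATA sequence in 43 of 65, against 12.3%. The octamer stood in 14 of 18 H2B and 11 of 16 H2A windows and in no H1, H3 or H4 window, against 1.83% of all windows. The H1 box stood in 6 of 6 H1 windows, against 5.79% of all windows. Windows of neighbours on opposite strands can overlap, so 1 match can count for both genes. The only TATA match of HIST1H2BC, at -220 from its start, is the one at -31 from the start of HIST1H2AC. These 2 genes share their octamer match as well. The windows of 3 genes that rose are printed with every match in capitals: HIST1H1C (chr6:26056421-26056720, minus strand) for its H1 boxes, HIST1H2BC (chr6:26123877-26124176, minus strand) for the stretch it shares with the divergent HIST1H2AC, and HIST2H2BE (chr1:149886633-149886932, minus strand) for its octamer, which starts 46 bases before the annotated start.
HIST1H1C: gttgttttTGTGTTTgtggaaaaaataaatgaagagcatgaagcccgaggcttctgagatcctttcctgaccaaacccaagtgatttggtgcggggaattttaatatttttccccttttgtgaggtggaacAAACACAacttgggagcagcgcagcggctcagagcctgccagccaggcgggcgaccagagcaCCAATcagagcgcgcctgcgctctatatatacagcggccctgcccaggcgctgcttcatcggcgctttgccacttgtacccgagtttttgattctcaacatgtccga
HIST1H2BC: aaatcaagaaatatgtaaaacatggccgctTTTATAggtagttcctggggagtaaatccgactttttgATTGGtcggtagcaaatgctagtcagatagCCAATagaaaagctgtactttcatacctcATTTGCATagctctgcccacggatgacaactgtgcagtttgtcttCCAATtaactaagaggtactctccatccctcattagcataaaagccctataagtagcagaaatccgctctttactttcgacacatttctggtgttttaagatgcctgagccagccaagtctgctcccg
HIST2H2BE: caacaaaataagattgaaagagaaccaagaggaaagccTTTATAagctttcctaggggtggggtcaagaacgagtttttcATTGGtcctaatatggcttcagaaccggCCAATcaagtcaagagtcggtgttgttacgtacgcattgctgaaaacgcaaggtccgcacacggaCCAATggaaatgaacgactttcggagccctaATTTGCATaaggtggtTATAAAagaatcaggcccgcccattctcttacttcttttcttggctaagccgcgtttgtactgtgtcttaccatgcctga
Genes that rose and genes that did not pass both held the octamer. It was in the windows of HIST1H2BC, HIST1H2BJ and HIST2H2BE, which rose, and in that of HIST1H2BK, which did not pass the test, and it was not in the window of HIST1H2BD, which rose. A match describes the letters in the window and says nothing of what is bound there.

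The table holds whole-number read counts, with 8643076 to 12477214 counts per library, and values below are counts or CPM, which are counts relative to a library total scaled by the TMM factors of edgeR. Where a library had no read of a gene, counting error alone left room for 3 counts, which is 0.240 to 0.342 CPM. SNHG17, the targeted transcript, had 7.82, 8.39 and 11.3 CPM with si-SNHG17, against 38.7, 36.2 and 51.4 CPM with si-NC (log2 fold change -2.21, standard error 0.167, adjusted p = 2.84e-07 by edgeR's quasi-likelihood test). Within si-NC, replicate 3 stood further from replicates 1 and 2 (chi-square per degree of freedom of 8.85 and 8.40) than these did from each other (2.25), and results that turn on it are given without it as well. By edgeR at an adjusted p under 0.05, 4 of 5 epithelial markers fell (KRT8, KRT18, CDH1 and CLDN4), against 19.6% of all genes tested. The summed level of the 5, nearly all of it KRT8 and KRT18, was 4881 to 4899 CPM with si-SNHG17 and 8349 to 9343 CPM with si-NC. Among immune markers PTPRC, CD3E and MS4A1 had no read anywhere. The sum of that list, nearly all of it CD14, was 18.6 to 21.6 CPM with si-SNHG17 and 31.2 to 43.7 CPM with si-NC. CD14 fell as well (log2 fold change -0.88, adjusted p = 0.000169 by edgeR). Of 7 stromal and endothelial markers 2 had no read anywhere (COL1A2 and COL3A1), and the sum was 22.6 to 29.96 CPM with si-SNHG17 and 21.4 to 28.7 CPM with si-NC. RMRP, RN7SK, RPPH1, SNORD3A and the snRNA rows, which are short structured RNAs, summed to 52.3 to 90.02 CPM with si-SNHG17, against 5.71 to 7.86 CPM with si-NC. These short RNAs rose and the epithelial markers fell alongside the histone results below, and their part in those results was not tested.

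Summed CPM of the histone genes was higher in si-SNHG17 cells. The genes that rose by the test below were H1, H2A and H2B genes. RNA selection is not given in the sources used here, so how far these counts cover hairpin-ended mRNAs is not known. Only 1 gene each of H1, H3 and H4 had enough counts to be tested. All 70 genes together had 180.0, 181.0 and 187.2 CPM with si-SNHG17, against 87.8, 80.2 and 92.4 CPM with si-NC, a ratio of 2.11. Without HIST1H1C, the most counted member, the other 69 genes had 80.9, 87.4 and 90.8 CPM in si-SNHG17 and 54.6, 50.3 and 56.1 CPM in si-NC, a ratio of 1.61. In both sums each si-SNHG17 library lay above each si-NC library. In bulk RNA a change in the share of cells that express a gene and a change per cell cannot be told apart.

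By class, the summed CPM averaged 97.8 ± 2.58 in si-SNHG17 and 34.1 ± 3.59 in si-NC for H1, a ratio of 2.87 (SD, n = 3 libraries each, here and below). H2A averaged 25.0 ± 1.64 CPM in si-SNHG17 and 15.3 ± 3.58 CPM in si-NC, a ratio of 1.63. H2B averaged 52.0 ± 4.09 CPM in si-SNHG17 and 30.5 ± 1.29 CPM in si-NC, a ratio of 1.70. In these 3 classes the libraries of the groups did not overlap. H4 averaged 5.02 ± 0.379 CPM in si-SNHG17 and 3.73 ± 0.227 CPM in si-NC, a ratio of 1.35, also without overlap but on 155 counts in si-SNHG17 against 110 counts in si-NC. H3 averaged 3.06 ± 0.609 CPM in si-SNHG17 and 3.17 ± 0.578 CPM in si-NC, and its libraries overlapped. The sums are descriptions with no test, and H3 and H4 rest on far fewer reads than the other classes.

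**Figure D1:**
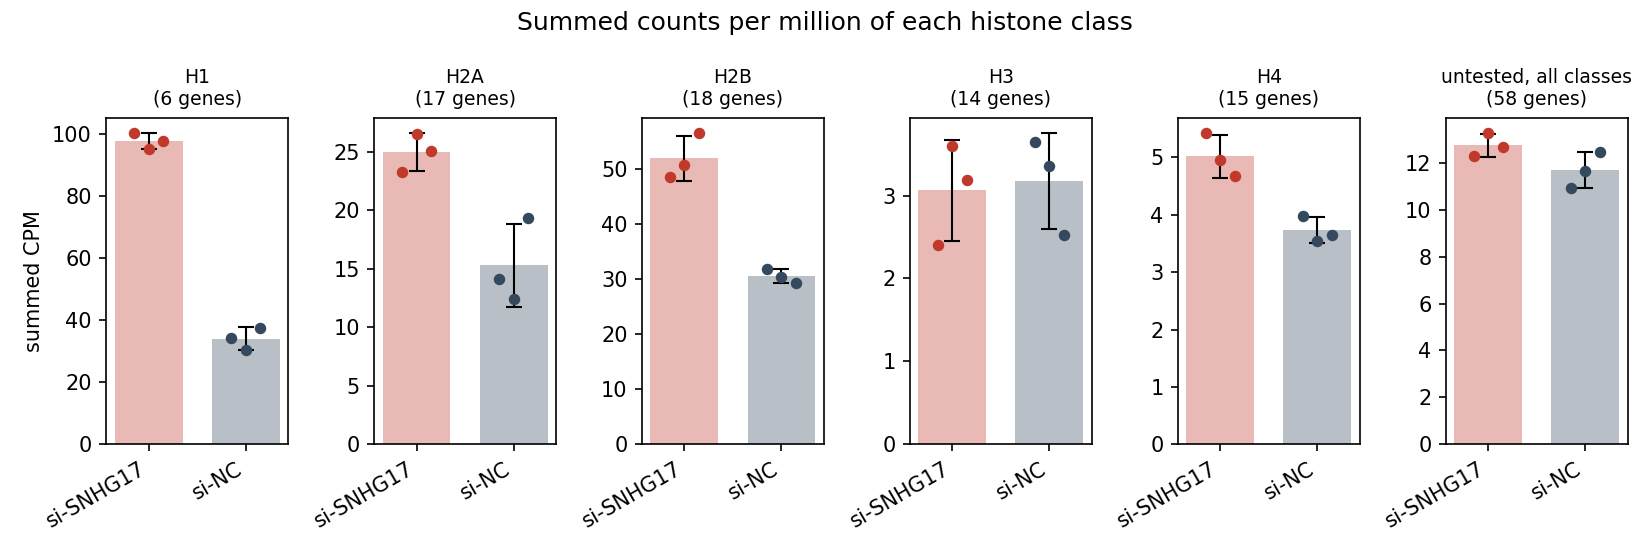
Summed CPM of the genes of each histone class, and of the 58 genes too low to be tested, in si-SNHG17 (red) and si-NC (dark blue); points are libraries, bars are means and error bars are SD over 3 libraries, and each panel has its own axis starting at 0. The groups are apart for H1, H2A, H2B and H4 and overlap for H3 and for the untested genes, whose means were 12.7 CPM in si-SNHG17 and 11.7 CPM in si-NC.

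Of the 70 genes, 12 had no read in any library, 31 had 1 to 19 reads over the 6 libraries, and 27 had 20 or more. The filter on low counts (filterByExpr) passed 12 of them to the test, and 58 were not tested. By edgeR's quasi-likelihood test, adjusted over all 15614 genes tested at a threshold of 0.05, 8 of the 12 rose and none fell; 19.6% of all genes tested rose and 19.6% fell. None of the 12 fell at an unadjusted p under 0.05 either, and none with DESeq2 or limma-voom. The libraries of the groups did not overlap, with si-SNHG17 higher, in 9 of the 12, against 25.1% of all genes tested. HIST2H2AA3 reached the filter in si-SNHG17 libraries only, so it could enter the test only by being higher there. A count that does not depend on which group was high used the fit without a filter and the 27 genes with at least 20 counts in all. There 10 of 27 rose, against 17.7% of the 18765 genes with at least 20 counts, and the median log2 fold change was 0.59 for the 27 genes and 0.01 for all of them.

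**Figure D2:**
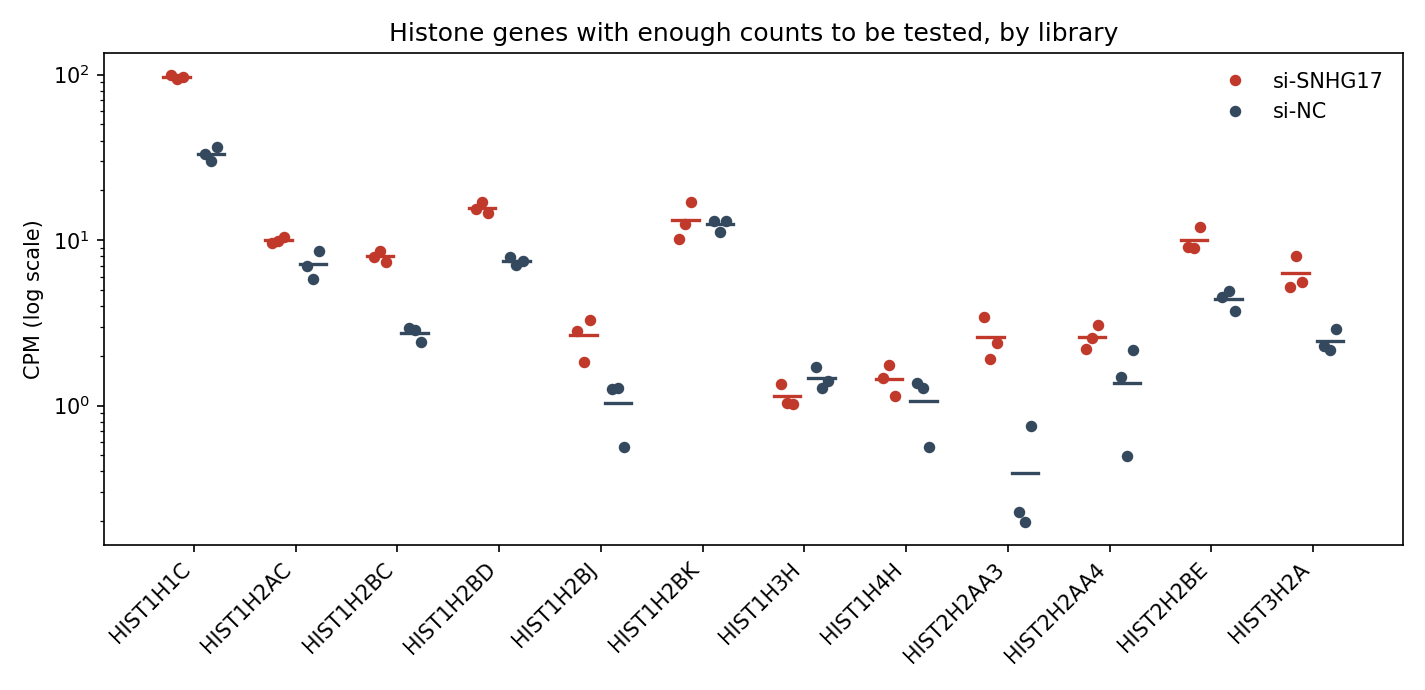
CPM on a log axis for the 12 histone genes that were tested, with si-SNHG17 libraries (red) left of si-NC libraries (dark blue); points are libraries and lines are means of 3. HIST1H1C had the most counts, and its groups are apart, whereas the groups of HIST1H2BK, HIST1H3H and HIST1H4H overlap.

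H1 was carried by a single gene. HIST1H1C (chromosome 6, 26055740 to 26056470, minus strand, RefSeq GRCh38.p14), which encodes the linker histone H1.2 in a single exon, was counted 950, 1172 and 846 times with si-SNHG17 and 291, 303 and 388 times with si-NC. These were 99.1, 93.6 and 96.4 CPM in si-SNHG17 and 33.1, 29.9 and 36.3 CPM in si-NC, so the groups lay far apart and each was tight. Its log2 fold change was 1.54 (standard error 0.0963, adjusted p = 4.87e-08 by edgeR). It took 52.7% of all counts of the 70 genes in si-SNHG17 and 38.2% in si-NC. The other 5 H1 genes held 43 counts together in si-SNHG17 and 29 in si-NC, and their sums overlapped between the groups. Among them HIST1H1E, which encodes H1.4, had 6, 12 and 6 counts in si-SNHG17 against 1, 2 and 4 counts in si-NC. It was too low for the filter, and without the filter its log2 fold change of 1.67 did not pass (adjusted p = 0.0814 by edgeR). HIST1H1D, which encodes H1.3, had 5, 6 and 5 counts in si-SNHG17 against 5, 3 and 10 in si-NC. HIST1H1B had 1 count in each si-SNHG17 library and none in si-NC, HIST1H1T had none in si-SNHG17 and 4 counts in si-NC, and HIST1H1A had none in any library.

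Of 17 H2A genes 4 were tested, and 3 of them rose, against 19.6% of all genes tested that rose. Among the 3 is HIST2H2AA3, which reached the filter in si-SNHG17 libraries only and so could enter the test only by being higher there. HIST3H2A (chromosome 1, 228457364 to 228457873, minus strand), a member of the small HIST3 cluster, had 5.21, 8.07 and 5.58 CPM in the si-SNHG17 libraries and 2.28, 2.17 and 2.90 CPM in the si-NC libraries. Its groups did not overlap, and the log2 fold change was 1.37 (standard error 0.251, adjusted p = 0.000685 by edgeR). HIST1H2AC (chromosome 6, 26124172 to 26124690, plus strand) had 9.59, 9.91 and 10.5 CPM in si-SNHG17 and 6.94, 5.82 and 8.62 CPM in si-NC. Its rise of 0.48 (standard error 0.178) was just past the threshold (adjusted p = 0.0450 by edgeR). That call was lost with DESeq2 (adjusted p = 0.0848), with the replicate block (0.0513), over mRNA rows only (0.0551) and without any of 5 libraries (0.0738, 0.0866 and 0.109 without si-SNHG17 replicates 1, 2 and 3, and 0.107 and 0.193 without si-NC replicates 1 and 2). Without si-NC replicate 3 the adjusted p was 0.00941.

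HIST2H2AA3 and HIST2H2AA4 are near-identical copies on chromosome 1 (149842218 to 149842750, minus strand, and 149851061 to 149851594, plus strand). All 50-base stretches of the annotated HIST2H2AA3 transcript occur in that of HIST2H2AA4, so the counts of each depend on how shared reads were assigned, which is not given in the sources used here. HIST2H2AA3 had 33, 24 and 21 counts in si-SNHG17 against 2, 2 and 8 in si-NC, a log2 fold change of 2.63 (standard error 0.476, adjusted p = 0.000619 by edgeR). That value was 3.52 without si-NC replicate 3. HIST2H2AA4 had 21, 32 and 27 counts in si-SNHG17 against 13, 5 and 23 in si-NC, and its log2 fold change of 0.91 did not pass (standard error 0.401, adjusted p = 0.0899), though it passed without the filter (0.0443) and without si-NC replicate 3 (0.0156). Summed, the copies had 54, 56 and 48 counts in si-SNHG17 against 15, 7 and 31 in si-NC. The sum was higher in each si-SNHG17 library, by 1.53 on the log2 scale (standard error 0.352, adjusted p = 0.00354 by edgeR with the copies in 1 row).

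The 13 untested H2A genes held 109 counts together in si-SNHG17 and 118 in si-NC. HIST1H2AM had 6, 9 and 9 counts in si-SNHG17 against 5, 8 and 19 in si-NC, and HIST2H2AC had 8, 20 and 8 in si-SNHG17 and 8, 5 and 9 in si-NC. HIST1H2AI had 2, 10 and 8 counts in si-SNHG17 against 5, 3 and 3 in si-NC. HIST1H2AK had 3, 2 and 1 counts in si-SNHG17 against 1, 9 and 7 in si-NC. All 4 overlapped between the groups. Of the 50-base stretches of HIST1H2AM, 86.3% occur in HIST1H3J. Those of HIST1H2AI occur to 62.3% in HIST1H2AJ, and those of HIST2H2AC to 30.5% in HIST2H2AA4. HIST1H2AK lies across HIST1H2BN on the opposite strand. How shared reads and strand were handled is not given in the sources used here. In HIST1H2AG the 3 si-SNHG17 libraries were the lower ones, with 5, 6 and 2 counts in si-SNHG17 against 5, 7 and 8 in si-NC, but the adjusted p without the filter was 0.568 by edgeR.

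Of 18 H2B genes 5 were tested and 4 rose, against 19.6% of all genes tested that rose. HIST1H2BC (chromosome 6, 26113170 to 26123926, minus strand) had 7.92, 8.63 and 7.41 CPM in the si-SNHG17 libraries and 2.96, 2.86 and 2.43 CPM in the si-NC libraries. Its log2 fold change of 1.54 (standard error 0.204, adjusted p = 4.27e-05 by edgeR) was about the size of that of HIST1H1C. HIST1H2BD (chromosome 6, 26158121 to 26171349, plus strand) had 15.4, 16.9 and 14.6 CPM in si-SNHG17 and 7.86, 7.10 and 7.49 CPM in si-NC. It rose by 1.07 (standard error 0.147, adjusted p = 6.21e-05 by edgeR), with the groups well apart. The GENCODE annotation places an antisense gene, AL353759.1, and the pseudogene LARP1P1 across HIST1H2BD, and the use of strand in the counting is not given in the sources used here.

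HIST2H2BE (chromosome 1, 149884459 to 149886682, minus strand) had 9.07, 8.95 and 12.1 CPM in si-SNHG17 and 4.55, 4.93 and 3.75 CPM in si-NC. It rose by 1.18 (standard error 0.198, adjusted p = 0.000345 by edgeR). HIST1H2BJ (chromosome 6, 27132316 to 27132795, minus strand) had 27, 23 and 29 counts in si-SNHG17 against 11, 13 and 6 in si-NC. It rose by 1.34 (standard error 0.380, adjusted p = 0.0123 by edgeR), and by 1.03 without si-NC replicate 3. The call was lost without si-SNHG17 replicate 3 (adjusted p = 0.0567). HIST1H2BK (chromosome 6, 27138293 to 27146858, minus strand) had more counts over the 6 libraries than any other H2B gene, but its groups overlapped. It had 10.1, 12.5 and 17.1 CPM in si-SNHG17 and 13.1, 11.2 and 13.02 CPM in si-NC, a log2 fold change of 0.08 (standard error 0.182, adjusted p = 0.746 by edgeR). The sign of that value depended on the setting, with -0.12 without si-SNHG17 replicate 3 and -0.05 with an offset for GC content and length. Of the 50-base stretches of its annotated transcript 74.1% occur in other histone transcripts, against 0% to 8.11% for the 9 tested genes other than this one and the HIST2H2AA copies. That HIST1H2BK transcript has only 381 bases, whereas the longest annotated transcripts of those 9 genes have 642 to 2194. The shares were not adjusted for length.

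The other 13 H2B genes held 73 counts in si-SNHG17 against 71 in si-NC. HIST1H2BN had 15, 9 and 11 counts in si-SNHG17 against 7, 9 and 6 in si-NC, and HIST1H2BO had 4, 1 and 1 in si-SNHG17 and 3, 7 and 6 in si-NC. Both overlapped between the groups and did not pass without the filter (adjusted p = 0.449 and 0.282 by edgeR). The remaining 11 had at most 18 counts each over the 6 libraries, 2 of them none.

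**Figure D3:**
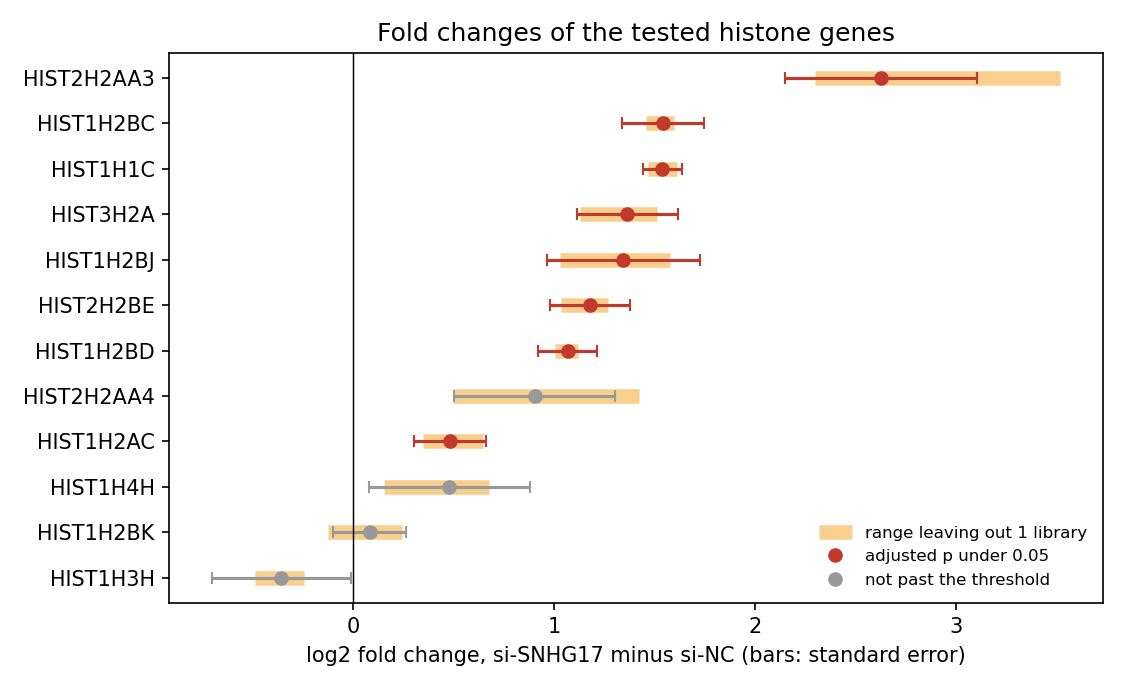
Log2 fold change, si-SNHG17 minus si-NC, of the 12 tested histone genes, with standard errors as thin bars and the range over fits that left out each library as wide bars; red genes passed an adjusted p of 0.05. HIST1H1C and HIST1H2BC sit near 1.54 with narrow ranges, HIST2H2AA3 has the widest range, and HIST1H2BK spans 0.

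Core histones H3 and H4 were thinly counted and no tested gene of either passed. HIST1H3H (chromosome 6, 27810051 to 27810536, plus strand), the H3 gene with the most reads, had 13, 13 and 9 counts in si-SNHG17 against 15, 13 and 15 in si-NC. Its log2 fold change was -0.36 (standard error 0.347, adjusted p = 0.450 by edgeR). HIST1H3B had 2, 7 and 5 counts in si-SNHG17 against 5, 6 and 5 in si-NC, and HIST1H3E had 4, 9 and 6 in si-SNHG17 and 4, 7 and 1 in si-NC. HIST1H3A had no count in si-SNHG17 and 1, 2 and 1 in si-NC, each under the 3 counts that a 0 in 1 library allows. Summed, this was 0 against 4 counts, and the gene did not pass without the filter (adjusted p = 0.229 by edgeR). The 13 untested H3 genes held 61 counts in si-SNHG17 against 50 in si-NC. The standard error of HIST1H3H limits what could be seen to larger changes, and a small change of H3 was not detectable with so few reads.

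HIST1H4H (chromosome 6, 26285126 to 26285534, minus strand) was the H4 gene tested, with 14, 22 and 10 counts in si-SNHG17 against 12, 13 and 6 in si-NC. Its log2 fold change was 0.48 (standard error 0.400, adjusted p = 0.371 by edgeR), and 0.155 without si-NC replicate 3. HIST2H4A had 9, 9 and 6 counts in si-SNHG17 against 3, 0 and 3 in si-NC, and HIST1H4B had 8, 5 and 1 in si-SNHG17 and 0, 0 and 1 in si-NC. Both were too low for the filter and passed only in the fit without it (adjusted p = 0.0496 and 0.0326 by edgeR), so these calls rest on 30 and 15 reads in all. HIST2H4A has a near-identical copy, HIST2H4B, and the copies summed to 13, 11 and 9 counts in si-SNHG17 against 5, 2 and 6 in si-NC, still under the filter. HIST1H4I had 5, 2 and 4 counts in si-SNHG17 against 1, 4 and 8 in si-NC, and HIST4H4, the single HIST4 gene, had 1, 11 and 1 in si-SNHG17 and 2, 4 and 5 in si-NC. HIST1H4E went the other way, with 2, 3 and 2 counts in si-SNHG17 against 4, 3 and 6 in si-NC, and did not pass (adjusted p = 0.549 without the filter).

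For the genes with few reads the summed levels overlapped between the groups, except in H4, whose 14 untested genes averaged 3.56 ± 0.384 CPM in si-SNHG17 and 2.66 ± 0.413 CPM in si-NC. The 58 genes not tested had 12.3, 13.3 and 12.6 CPM together with si-SNHG17, against 10.9, 11.6 and 12.5 CPM with si-NC. The 12 tested genes had 170.0 ± 3.96 CPM in si-SNHG17 and 75.1 ± 5.91 CPM in si-NC. The filter reads the same counts, so this split is not independent of the rise, and how far it shaped these sums was not tested. The difference between the sets was not tested either. In the fit without a filter, 11 of the 58 genes with any read rose and none fell, against 11.5% and 10.5% of the 29410 genes in that fit, and none fell at an unadjusted p under 0.05. The 11 were the 8 genes above with HIST2H2AA4, HIST1H4B and HIST2H4A. The 20 HIST rows of other gene types, mostly pseudogenes by name, held 50 counts in si-SNHG17 against 65 in si-NC.

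**Figure D4:**
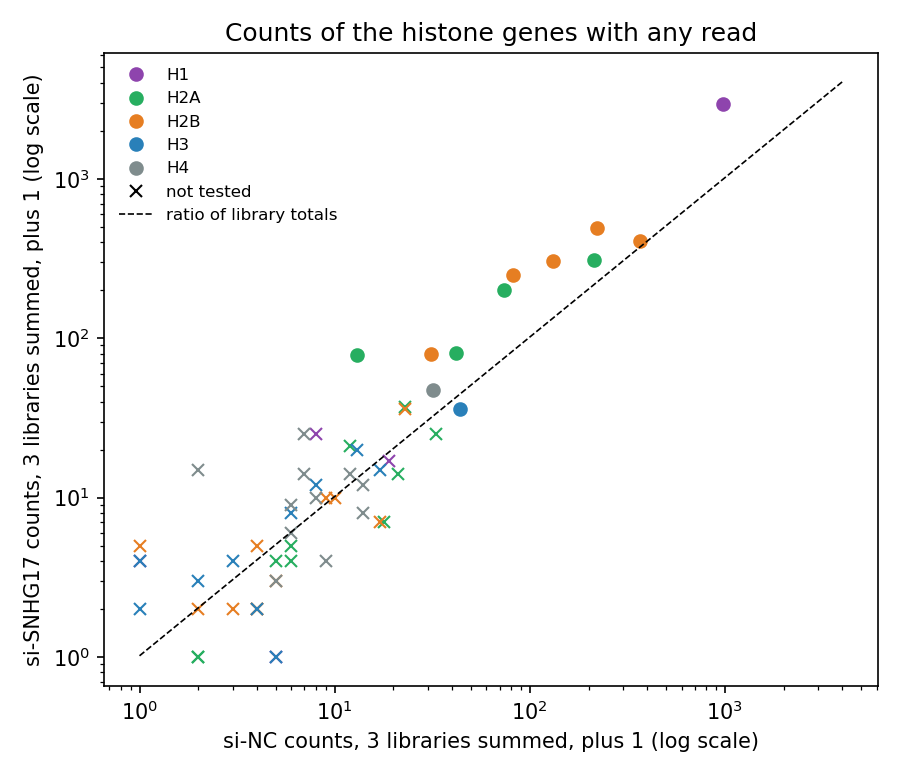
Counts of the 58 histone genes with any read, summed over the 3 si-SNHG17 libraries (vertical) and the 3 si-NC libraries (horizontal), plus 1, on log axes; colours are classes, circles were tested, crosses were not, and the dashed line is the ratio of the library totals. Above about 30 counts most genes lie over the line, while the crosses scatter on both sides of it.

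By cluster, the ratio of the summed levels ran from 0.917 in the third block of HIST1 to 2.51 in HIST3. The HIST3 ratio rests almost wholly on HIST3H2A, which held 200 of 204 counts in si-SNHG17 and 73 of 76 in si-NC. In the first block of the HIST1 cluster on chromosome 6, with 34 genes, the summed CPM averaged 135.9 ± 1.78 in si-SNHG17 and 55.5 ± 4.11 in si-NC. Without HIST1H1C it averaged 39.5 ± 2.61 in si-SNHG17 and 22.4 ± 1.08 in si-NC. In the second block, with 5 genes, it averaged 16.8 ± 3.93 in si-SNHG17 and 14.7 ± 0.813 in si-NC, and HIST1H2BK held most of those counts. In the third block of that cluster, with 16 genes, it averaged 5.33 ± 0.953 in si-SNHG17 and 5.81 ± 0.462 in si-NC. The HIST2 genes of chromosome 1, 11 in number, averaged 17.9 ± 2.08 CPM in si-SNHG17 and 7.78 ± 0.846 CPM in si-NC, and the 3 HIST3 genes 6.41 ± 1.58 CPM in si-SNHG17 and 2.55 ± 0.390 CPM in si-NC. The groups overlapped in the second block and in the third, and not in the first, in HIST2 or in HIST3. Differences between the clusters were not tested.

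Many H2A and H2B genes are divergent neighbours that share a promoter stretch. RefSeq starts placed 14 pairs of members on opposite strands with starts under 1000 bases apart, 12 of them an H2A with an H2B gene. HIST1H2BC and HIST1H2AC, with 245 bases between their starts, both rose, by 1.54 and 0.48 on the log2 scale. HIST2H2BE, which rose, had 305 counts in si-SNHG17 against 130 in si-NC, while its partner HIST2H2AC across 235 bases had 36 in si-SNHG17 and 22 in si-NC. HIST3H2A, which rose, had 200 counts in si-SNHG17 against 73 in si-NC, while HIST3H2BB across 229 bases had 4 in si-SNHG17 and 3 in si-NC. HIST1H2BJ, which rose, had 79 counts in si-SNHG17 against 30 in si-NC, and HIST1H2AG across 247 bases had 13 in si-SNHG17 and 20 in si-NC. HIST1H2BK had 404 counts in si-SNHG17 against 368 in si-NC, and HIST1H2AH across 247 bases had 4 in si-SNHG17 and 5 in si-NC. In the last 4 pairs 1 partner held most of the reads, and the difference between partners was not tested.

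Most tested genes for DNA synthesis and for histone delivery to the fork fell, set beside the 19.6% of all genes tested that fell and the 19.6% that rose. Of 16 S-phase genes tested, 14 fell and 1 rose, with a median log2 fold change of -1.08, against 0.01 over all genes tested. Their summed level was 1118 to 1152 CPM in si-SNHG17 and 1881 to 1977 CPM in si-NC, and the part of this in the histone results was not tested. The smallest p-values belonged to GINS1 and MCM6, subunits of the replicative helicase complex (-2.11 and -1.24), to RRM2 of ribonucleotide reductase (-1.38) and to CDC6, which loads the helicase (-1.09). Against the same shares, of 14 replication-coupled histone chaperones, which escort new histones to the fork, 10 fell and 2 rose, with a median of -0.49. RBBP7 (-0.56), ASF1B (-0.95), CHAF1A (-0.93) and NASP (-0.48) fell, while ASF1A (0.44) and the importin IPO4 (0.30) rose. CHAF1A, a subunit of the chromatin assembly factor CAF-1, averaged 9.27 ± 1.24 CPM in si-SNHG17 and 17.7 ± 2.02 CPM in si-NC.

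The counts of regulators of histone genes are to be read against the same shares of all genes tested, 19.6% lower and 19.6% higher. Of 10 genes for histone gene transcription 4 fell and 2 rose, with a median of -0.40. E2F1, the S-phase transcription factor (-1.64), the kinase gene CDK2 (-0.58) and its cyclin gene CCNA2 (-0.65) fell, as did POU2F1, which encodes the octamer-binding factor OCT1 (-0.47). CCNE1, which encodes cyclin E, rose (0.52), and so did the H4 promoter factor HINFP (0.40). NPAT, the cyclin E-CDK2 substrate that activates histone genes, gave -0.01 on that scale (standard error 0.157, adjusted p = 0.965 by edgeR). Of 11 genes for 3' end formation 3 fell and 2 rose, with a median of -0.16, which is close to those shares and is no result about the list. SLBP had 47.9, 55.0 and 54.8 CPM in the si-SNHG17 libraries and 66.4, 66.6 and 66.6 CPM in the si-NC libraries, and fell by 0.34 on the log2 scale (standard error 0.0913, adjusted p = 0.00921 by edgeR). ZNF473, a protein of the U7 complex, rose (0.86), as did the Cajal body protein COIL (0.56), while the cleavage factor gene CSTF2 (-0.36) and SRRT, which encodes the cap-binding partner ARS2 (-0.37), fell. Of 8 genes for histone mRNA translation and decay none passed by edgeR, with a median of 0.03, and none by DESeq2 or limma-voom; 2 had an unadjusted p under 0.05 by edgeR.

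Replacement histones are variants encoded outside these clusters, most of them made through the whole cell cycle from polyadenylated mRNAs. Of 11 tested 5 fell and 1 rose, with a median of -0.07, against 19.6% of all genes tested that fell and 19.6% that rose. H2AFZ, which encodes H2A.Z, fell by 1.08, its close relative H2AFV by 0.89, the centromeric CENPA by 0.69 and H2AFY by 0.32 on the log2 scale. These 4 had the smallest p-values of the list. The 1 gene that rose was the linker histone gene H1F0, by 0.41. H1F0 averaged 490.6 ± 42.4 CPM in si-SNHG17 and 370.4 ± 48.1 CPM in si-NC. The test of each gene is its own, and the difference between the lists was not tested.

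**Figure D5:**
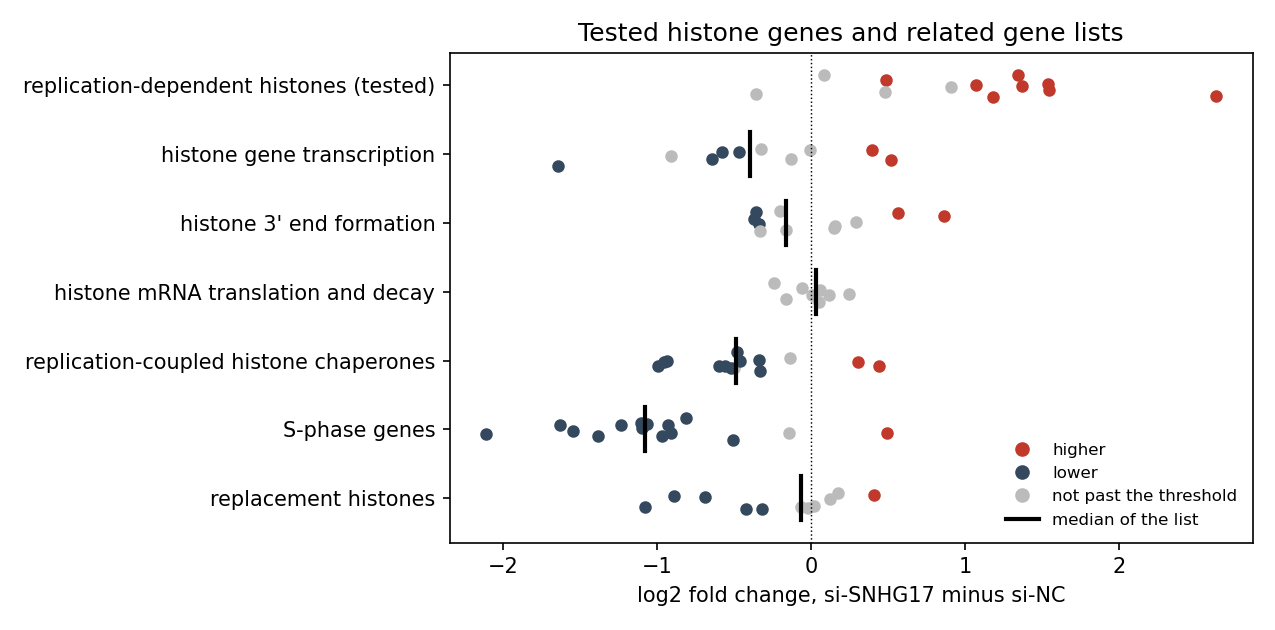
Log2 fold changes, si-SNHG17 minus si-NC, of the 12 tested histone genes (top) and of the tested genes of 6 related lists; red genes rose, dark blue genes fell and grey genes did not pass, and the black lines are the medians of the 6 related lists. S-phase genes and chaperones lie mostly below 0, with medians of -1.08 and -0.49, while 8 of the 12 histone genes are red.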

How the data were processed

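Libraries from total RNA of A549 cells (Ion Total RNA-Seq Kit) were sequenced single-end on an Ion Proton, per the labels' protocols; GRCh38 is the build per the submitters' processing notes. For aligner, counter, annotation, strand and RNA selection: not given in the sources used here. The deposited values are raw read counts of each gene, whole numbers, with 8643076 to 12477214 per library. Sample titles gave the groups and the columns.

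In R 4.3.3, counts that passed filterByExpr were scaled by TMM and tested with edgeR 4.0.16 (glmQLFit, glmQLFTest, group as the only term), with Benjamini-Hochberg adjustment over 15614 genes. Log2 fold changes put si-SNHG17 over si-NC, and the standard error is the log2 fold change divided by the square root of F. The procedure was tested on simulated data. An exact permutation test of 3 against 3 libraries could not give a p under 0.1 and was not used. DESeq2 1.42.0, limma 3.58.1 (voom), other scalings and filters, a replicate block and leaving out each library were alternatives. An offset for GC content and length (mgcv 1.9.3, 88.5% of genes tested had both), mRNA rows only, summed copies and the sum without HIST1H1C were chosen after seeing the data.

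The members and lists were chosen with earlier results of these data known. Named were SNHG17, each tested member, each other member with at least 20 counts, and up to 4 genes per list with the smallest p; others were named after their values were seen. All 70 members matched GENCODE release 29 and RefSeq (GRCh38.p14), from which positions and sequences come, in Python 3.11.15. One marker gene is not reported here.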

Additional observations from a re-analysis of the deposited data

How the results depend on the processing

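Of 202 values of the 12 tested histone genes under the alternatives, 189 kept their direction and side of the threshold, 9 lost the threshold (8 for HIST1H2AC, 1 for HIST1H2BJ), 2 gained it (both HIST2H2AA4) and 2 reversed. The reversed values were both of HIST1H2BK, not past the threshold, at -0.0536 with the GC and length offset and, leaving out each library, between -0.12 (without si-SNHG17 replicate 3) and 0.24; the cause was not tested. Histone genes that rose numbered 6 to 11 over all alternatives, 6 to 9 leaving out each library (fewest without si-SNHG17 replicate 3), 7 with the replicate block and 8 with each other scaling, and none fell in any of them. Requiring 2-fold left 697 genes higher and 768 lower of all genes, by construction, and 7 histone genes. All genes called ran from 2473 to 3335 higher and 2438 to 3266 lower leaving out each library. The log2 ratio of the summed CPM of all 70 genes, 1.07, was 0.69 without HIST1H1C by construction, and 1.02 to 1.12 leaving out each library; by class the same fits gave 1.45 to 1.597 for H1, 0.58 to 0.91 for H2A, 0.70 to 0.81 for H2B, 0.37 to 0.48 for H4 and -0.19 to 0.10 for H3, whose sign therefore depended on the library left out. SNHG17 ran from -2.37 to -2.04. Deviations from the group means correlated at 0.08, -0.15 and -0.12 between libraries with the same number, so the numbers were not taken to pair them; the replicate block gave 2813 genes higher and 2766 lower, and 5515 calls were shared by both fits. Low counts limit what can be said of H3, H4 and the 58 untested genes, and why their counts were low was not tested.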
